A study of Anguilla anguilla and Anguilla rostrata with 84 samples.

Results

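The comparison set livers of wild American eels (Anguilla rostrata) taken in 2 Quebec lakes against livers taken in 2 Quebec rivers. The lake fish were 5 from St Pierre lake and 5 from St François lake, and the river fish were 5 from Sud-ouest river and 5 from St Jean river. These 20 fish, 10 a side, were chosen by the collection site in the sample labels, out of 84 fish in the series, and all 992 contigs on the array were used. A contig is an assembled transcript sequence, here printed in 3 spots on each array. Each side was the mean of its 2 site means, so that each site weighed equally.

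Every array carried liver cDNA of 1 fish (Cy3) together with cDNA of a common pool (Cy5) of 30 wild European eels (Anguilla anguilla) from Certes in France. Each value is therefore a log2 ratio of an American eel over a European eel pool, and both sides share that pool. According to the study design, the sites were picked along a gradient of metal and organic pollution, and the rest of the series held wild French eels and eels exposed in the laboratory. The labels give no age, sex, size, silvering stage or sampling day for the Quebec fish, and the fish received no treatment. Only 2 sites stand for each water type, so lake or river cannot be told apart from whatever else distinguishes those 4 places. The slides also followed one another site by site, so slide order and site cannot be told apart either.

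American eels hatch in the Sargasso Sea, drift to the coast as larvae and spend their growth phase in estuaries, rivers or lakes before they return to spawn. They form a single breeding stock, and a resident yellow eel may feed for years in one water body. The liver takes up and stores fat, makes blood plasma proteins, binds metals and converts foreign compounds, and it is the organ most often sampled in field studies of polluted fish. The files and the gene table used here do not pair the contigs with gene names, so results are given by contig identifier, no function is assigned, and the liver label could not be checked against marker genes.

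The measures of array quality differed between the sides by less than their spread between arrays. Contigs with both channels above background averaged 966 ± 20.7 on lake arrays and 955.5 ± 33.7 on river arrays (SD, n = 10 each; permutation p = 0.413, adjusted p = 0.795 over 3 array measures). Mean brightness of the pool channel was 9.18 ± 1.54 on lake arrays and 8.63 ± 2.24 on river arrays on the log2 scale (permutation p = 0.530, adjusted p = 0.795). The pool channel was dim on 4 arrays, at 5.60 in St Pierre replicate 2, 5.23 in Sud-ouest replicate 2, and 5.82 and 5.89 in St Jean replicates 4 and 5. The other 16 arrays lay between 8.16 and 11.4. All 190 pairs of arrays correlated positively over the contigs, from 0.199 to 0.814 with a median of 0.474.

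Lake fish lay mostly above river fish on the first axis of variation, with some overlap. On the first principal component, which held 17.6% of the variance, St Pierre replicates 4 and 5 stood apart at 12.1 and 12.7. The other lake fish lay between -2.81 and 3.59, and river fish lay between -7.87 and 0.44. Of the 10 lake fish, 7 scored above every river fish and 3 lay within the river range, and the means were 3.04 in lakes and -3.04 in rivers. The sign of the axis was set so that the lake mean is positive. With 10 fish a side, centring makes the means equal in size and opposite, so neither is a result. This axis was not tested. The 3 lake fish within the river range, St Pierre replicate 1 and St François replicates 1 and 3, had the brightest pool channels among lake arrays (10.4, 10.3 and 11.4). The lowest river fish, Sud-ouest replicate 4 and St Jean replicates 2 and 3, had the brightest among river arrays (10.6, 11.0 and 11.0). St Pierre replicates 4 and 5 were at 9.24 and 9.34. Whether the axis follows pool brightness was not tested. Arrays from St Pierre correlated with each other less than arrays of the other sites did, with a median of 0.382 against 0.611 within St François, 0.501 within Sud-ouest and 0.616 within St Jean. Pairs of 1 lake fish and 1 river fish had a median of 0.449, close to the 0.441 between fish of different lakes and the 0.487 between fish of different rivers.

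**Figure D1:**
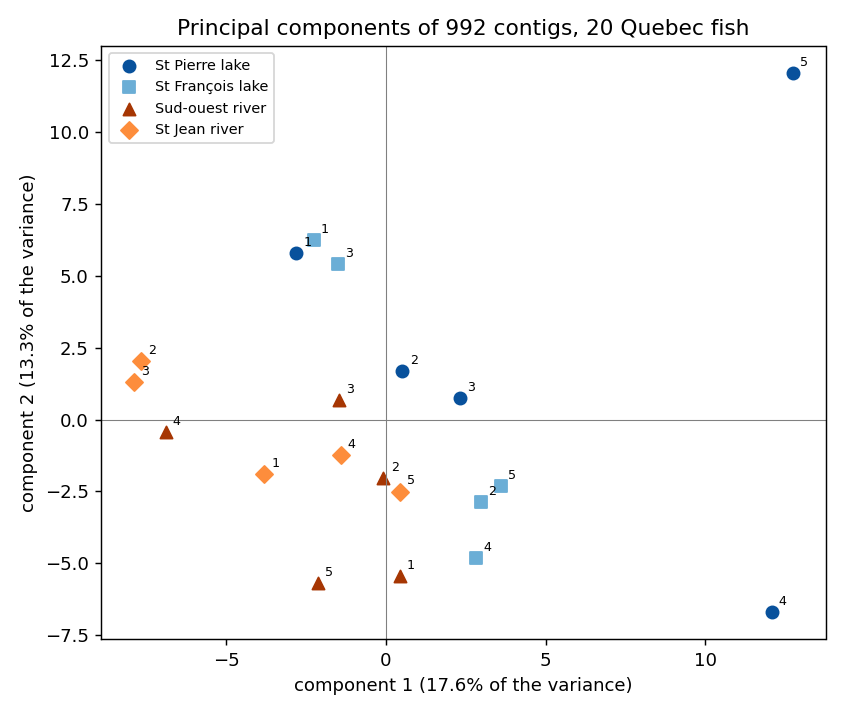
Scores of the 20 Quebec fish on the first principal component (x axis, 17.6% of the variance) and the second (y axis, 13.3%) of 992 log2 ratios; numbers are replicate names, and symbols give the site. St Pierre replicates 4 and 5 lie far to the right of the other fish, 5 more lake fish also lie to the right of every river fish, and 3 lake fish lie within the range of river fish along the x axis.

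Over all 992 contigs, the median share of the sum of squares was 3.42% between lakes and rivers, 9.88% between the sites of a side and 83.2% between fish of a site. The levels hold 5.26%, 10.5% and 84.2% of the degrees of freedom, in the same order. Without any difference those would be the mean shares, whereas the values above are medians of shares spread unevenly around their mean. The medians therefore cannot show whether sides or sites differed over all contigs. Per degree of freedom, the sites of a side varied more than the fish of a site at 488 of the 992 contigs. The sides varied more than the sites at 429 of the 992. The numbers to be expected without any difference were not computed. For the 16 contigs that passed the test described next, the median shares were 43.1%, 9.95% and 41.9%, which the test itself favours. The median SD between fish of a site was 0.295 on the log2 scale, and that between the 3 spots of a contig on one array was 0.236.

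Against that background, a small group of contigs differed between lake and river livers. By limma with Benjamini-Hochberg adjustment at 0.05, 16 contigs passed (1.61% of 992), of which 9 were higher in lakes (0.907%) and 7 were lower (0.706%). The differences ran from 0.40 to 1.66 on the log2 scale among contigs higher in lakes, and from -2.85 to -0.80 among those lower in lakes. The fish channel was above background on all 20 arrays for 14 of the 16. The median size of the difference over the 16 was 1.24, against 0.105 over all contigs. An unadjusted p under 0.05 was reached by 11.7% of the contigs.

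The test takes the fish as the unit and shares its estimate of spread with the French fish. With the 20 Quebec fish alone in the fit, 7 contigs passed, all among the 16. With site as a random block among the same 20 fish, 4 contigs passed, all among the 16, and contig_31300 and contig_26357 were the named contigs among them. The others, not named here, were lower in lakes (adjusted p = 0.00211 and 0.0182 in that limma fit). That fit used 1 consensus correlation for all contigs, 0.00458. It is so near 0 that fish of a site still counted as almost independent. With the mean of each site as 1 value, 0 passed in limma and 71 (7.16%) had an unadjusted p under 0.05. Sites can be assigned to the sides in 6 ways, so the smallest two-sided permutation p over sites would be 0.333. Single fish moved the count as well. It was 10 without St Pierre replicate 1, 10 without St François replicate 1 and 9 without Sud-ouest replicate 4. It rose to 20 without St Pierre replicate 2 or 4. Without both St Pierre fish that stood apart, 11 contigs passed, 9 of them among the 16. The counts by direction moved with the processing, to 6 higher and 8 lower when arrays were scaled to each other. They were 4 higher and 7 lower without background subtraction. No contig of the 16 changed direction in a refit where it was tested. The refits reuse the fish that selected the 16, which favours an unchanged direction.

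**Figure D2:**
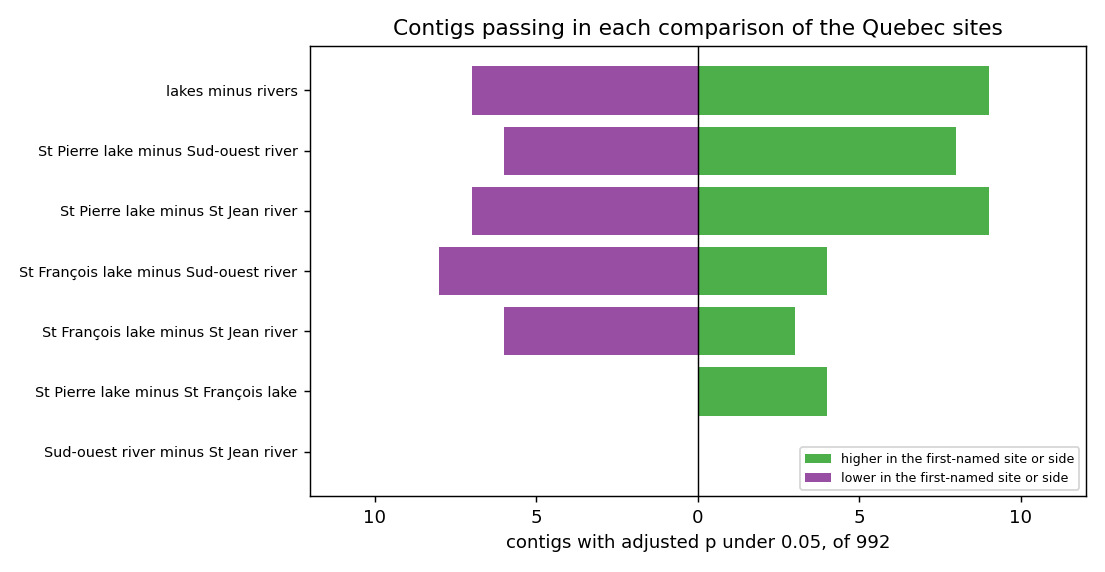
Number of contigs of 992 with an adjusted p under 0.05 (x axis) in each comparison of the Quebec sites (y axis); bars to the right count contigs higher in the first-named site or side, and bars to the left those lower. Lakes minus rivers, which compares 10 fish with 10, had 9 higher and 7 lower. The other comparisons set 5 fish against 5. St Pierre minus St François had 4 higher and 0 lower, and Sud-ouest minus St Jean had none.

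The largest increase in lake livers was that of contig_31300. In St Pierre lake its log2 ratios over the pool were -0.29, 0.0037, -0.43, -0.92 and -0.65, and in St François lake they were 0.26, -0.32, 0.42, 0.18 and 0.23. In Sud-ouest river they were -2.83, -1.32, -0.73, -1.38 and -1.78, and in St Jean river -2.71, -2.28, -2.25, -1.48 and -1.39. Lake fish sat close to the pool and river fish well below it, and 9 of the 10 lake fish lay above every river fish. The exception was St Pierre replicate 4, at -0.92, below the highest Sud-ouest fish at -0.73. Lakes averaged -0.15 ± 0.44 and rivers -1.81 ± 0.68 (SD, n = 10 each), a difference of 1.66 (SE 0.20, adjusted p = 1.04e-06) or 3.17-fold.

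contig_26357 had the next largest increase. Its values were 0.11, 0.78, 0.89, -1.28 and 0.90 in St Pierre and 0.86, 1.04, 0.76, 1.00 and 1.72 in St François. They were -0.80, -0.78, 0.19, -0.47 and -0.35 in Sud-ouest, and -0.85, -0.80, -0.50, -0.35 and -1.51 in St Jean. All St François fish stood above every river fish, while St Pierre held 1 fish at -1.28, lower than all river fish but one. Lakes averaged 0.68 ± 0.79 and rivers -0.62 ± 0.45 (SD, n = 10 each), a difference of 1.30 (SE 0.20, adjusted p = 0.000147) or 2.46-fold.

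contig_9866 had the largest decrease in lake livers and also the largest gap between the rivers among the 16. Its values were -1.73, -1.37, -3.73, -2.44 and -5.21 in St Pierre and -3.81, -4.15, -3.14, -1.20 and -0.73 in St François. They were -2.51, -1.22, -2.92, -0.16 and -0.34 in Sud-ouest, and 3.55, 1.34, 3.07, 1.06 and -0.90 in St Jean. The fish channel was above background on 4 of the 5 St Pierre arrays. St Jean held the only 4 fish above the pool, and Sud-ouest fish overlapped lake fish. Lakes averaged -2.75 ± 1.48 and rivers 0.10 ± 2.16 (SD, n = 10 each), a difference of -2.85 (SE 0.71, adjusted p = 0.0273). The 2 lakes had nearly equal means, -2.90 ± 1.58 in St Pierre and -2.60 ± 1.55 in St François, against -1.43 ± 1.25 in Sud-ouest and 1.62 ± 1.77 in St Jean (SD, n = 5 each). Both lakes passed against St Jean, by -4.52 in St Pierre (adjusted p = 0.0179) and -4.23 in St François (adjusted p = 0.0281), and neither passed against Sud-ouest (-1.47, adjusted p = 0.648, and -1.17, adjusted p = 0.851). Without background subtraction the differences from St Jean were -2.82 in St Pierre and -2.63 in St François, both passing. The St Pierre difference did not pass in the authors' processed values (-5.04, adjusted p = 0.0711). Nor did it pass without both St Pierre fish that stood apart (-3.90, adjusted p = 0.115). The St François difference did not pass with scaling between arrays (-3.78, adjusted p = 0.0796). Of 20 fits that left out 1 fish, 18 kept the St Pierre call and 15 the St François call. Sud-ouest minus St Jean was -3.06 (SE 1.00, adjusted p = 0.253). The call between lakes and rivers was lost without any one of St Pierre replicate 5, St François replicates 1 and 2, Sud-ouest replicates 4 and 5, and St Jean replicates 1 and 3, at differences of -2.71 to -2.56. It was also lost without background subtraction (-1.60), in the authors' processed values (-3.29), with scaling between arrays (-2.33), without both St Pierre fish that stood apart (-2.54), and with site as a random block or as the unit.

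contig_1168 had the other large decrease, with both rivers at nearly the same level. Its values were 0.81, 1.04, 1.25, -2.83 and 0.63 in St Pierre and 1.60, 0.47, 0.57, 0.73 and 1.28 in St François. They were 2.22, 2.68, 1.61, 2.97 and 2.32 in Sud-ouest, and 2.98, 2.68, 3.02, 0.78 and 2.15 in St Jean. All but 1 of the 10 river fish exceeded every lake fish, and that one was St Jean replicate 4 at 0.78. Lakes averaged 0.55 ± 1.24 and rivers 2.34 ± 0.71 (SD, n = 10 each), a difference of -1.79 (SE 0.38, adjusted p = 0.00549), or 3.45-fold lower in lakes. Without St Pierre replicates 4 and 5 the difference was -1.36 (adjusted p = 0.0105). The call was lost with site as a random block (adjusted p = 0.0575) and with site means (adjusted p = 0.194).

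**Figure D3:**
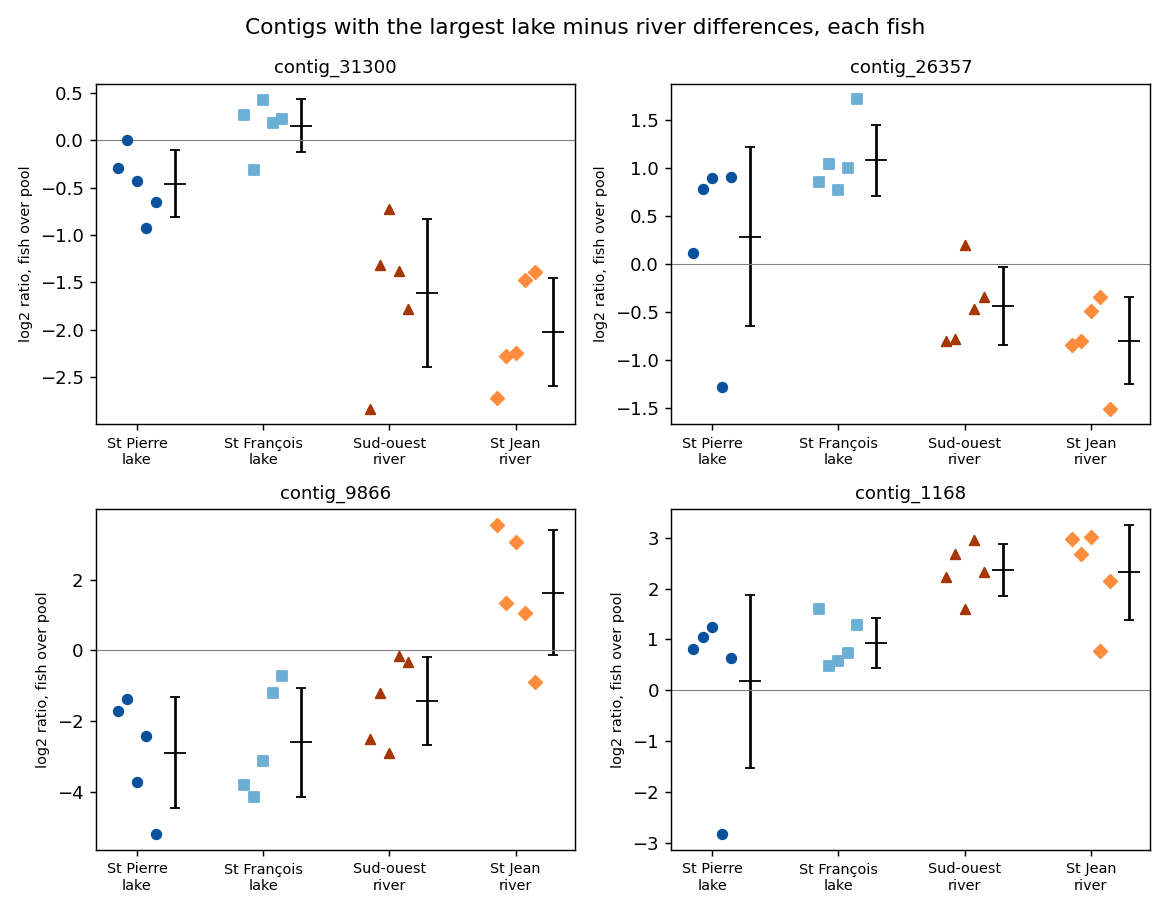
Log2 ratio of fish over pool (y axis) for the 2 contigs with the largest increase and the 2 with the largest decrease in lakes; each symbol is 1 fish, and black bars give the mean ± SD of the 5 fish of a site. Lake sites stand left of river sites; contig_9866 is high only in St Jean, while contig_1168 is high in both rivers.

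The second question was whether both sites of a side moved together. Both lake means lay on one side of both river means at 341 of 992 contigs (34.4%), above them at 17.4% and below them at 16.9%. Of the 6 ways in which 4 site means can be ordered by side, 2 separate the sides (33.3%), so the share over all contigs lay near that of means in arbitrary order. At the other contigs the lake and river means were interleaved. All 16 contigs that passed had both lakes on one side of both rivers, a pattern the test itself favours. Contigs that both reached an unadjusted p under 0.05 and were separated in this way made up 10.6% of all, out of the 11.7% that reached that p. By size of the lake minus river difference, which is made of the same means and so fixes much of the separation, the share of separated contigs was 25.2% of 817 contigs with differences under 0.25, 71.8% of those from 0.25 to 0.5, 86.7% of 30 from 0.5 to 0.75, and 95.2% of 21 from 0.75 upwards.

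Separation of site means did not carry through to every fish. No contig had all 10 lake fish beyond all 10 river fish (0 of 992, 0%). Among the 16, the number of lake fish beyond every river fish ran from 0 to 9, and 2 contigs reached 9. All 10 lake fish lay beyond the river mean at 13 of the 16, and at 10 of them all 10 river fish also lay beyond the lake mean. The gap between the lakes exceeded the difference between the sides at 2 of the 16, and the gap between the rivers did so at 1. The counts among the 16 were not made over all 992 contigs. These same fish selected the 16 for their differences, so the test itself favours such counts.

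**Figure D4:**
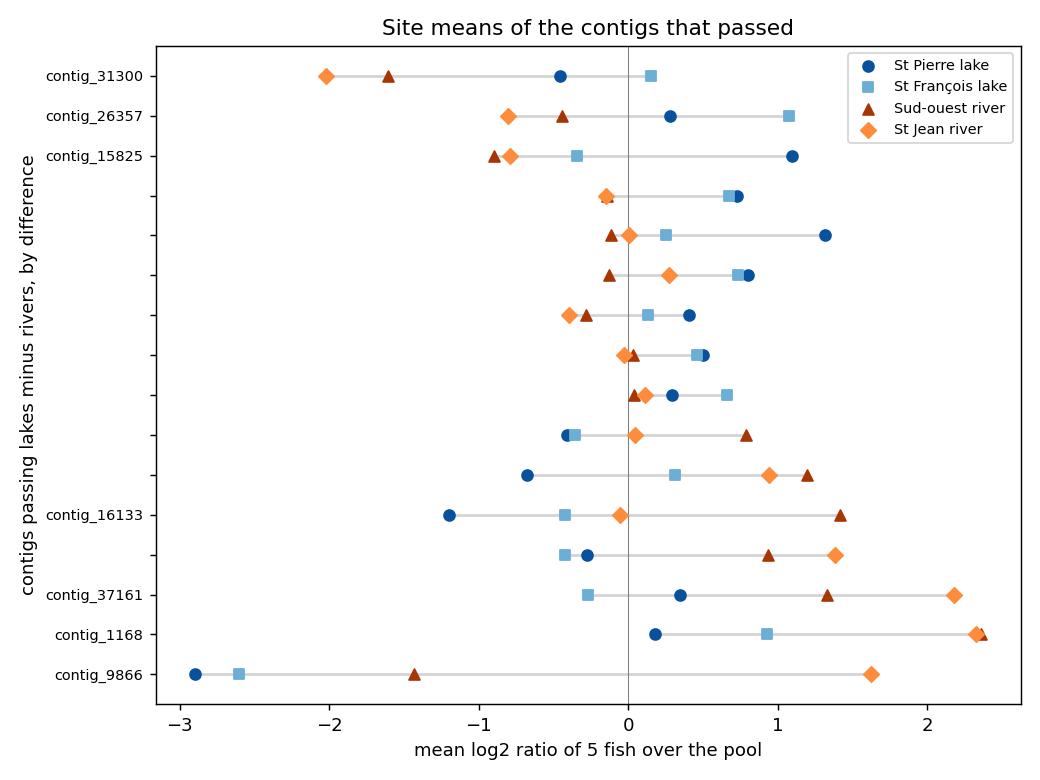
Mean log2 ratio of the 5 fish of each site over the pool (x axis) for the 16 contigs that passed lakes minus rivers (y axis, from the largest increase at the top to the largest decrease at the bottom); identifiers are given for contigs named in the text. Both lake symbols lie on one side of both river symbols in every row, with wide gaps between the lakes at contig_15825 and between the rivers at contig_9866.

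Each lake was then set against each river. St Pierre minus Sud-ouest had 14 contigs passing (1.41%), 8 higher (0.806%) and 6 lower (0.605%). St Pierre minus St Jean had 16 (1.61%), 9 higher (0.907%) and 7 lower (0.706%). St François minus Sud-ouest had 12 (1.21%), 4 higher (0.403%) and 8 lower (0.806%), and St François minus St Jean had 9 (0.907%), 3 higher (0.302%) and 6 lower (0.605%). An unadjusted p under 0.05 was reached by 11.3%, 12.1%, 8.57% and 9.68% of contigs in these 4 pairs, in the same order. Without background subtraction, St Pierre minus St Jean had 32, of which 8 were higher and 24 lower. Scaling between arrays gave 5 higher and 6 lower in that pair, and median centring gave 4 higher and 7 lower for St Pierre minus Sud-ouest. These pairs share fish, so their counts are not independent of each other. In all, 31 contigs passed in at least 1 pair, 15 of them in a single pair, and 15 of the 31 were among the 16. Among the 16, 1 contig passed in no pair, 5 in 1 pair, 7 in 2 pairs, 2 in 3 pairs and 1 in all 4. The difference from the river mean was larger in St Pierre at 11 of the 16. St Pierre passed against both rivers at 5 of them and St François at 3. These counts among the 16 were not made over all contigs.

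The counts in these pairs moved with single fish, up as well as down. Leaving out 1 fish gave at most 20 for St Pierre minus Sud-ouest and 24 for St Pierre minus St Jean. It gave at most 17 for St François minus Sud-ouest and 9 for St François minus St Jean. The larger falls follow. St Pierre minus St Jean had 2 without St Jean replicate 1, 6 without St Jean replicate 2 or St Pierre replicate 5, 9 without St Jean replicate 3 or 5, 10 without St Jean replicate 4 or St Pierre replicate 4, and 2 without both St Pierre fish that stood apart. St Pierre minus Sud-ouest had 7 without Sud-ouest replicate 4 or 5. St François minus Sud-ouest had 5 without St François replicate 1 or 3, 4 without Sud-ouest replicate 4 and 6 without Sud-ouest replicate 5. St François minus St Jean had 5 without St François replicate 1 or 2 or St Jean replicate 1, and 4 without St François replicate 3.

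contig_31300 was the 1 contig (0.101%) that passed in all 4 pairs, singled out after its values were seen. It was higher by 1.15 in St Pierre than in Sud-ouest (SE 0.28, adjusted p = 0.0234) and by 1.56 than in St Jean (adjusted p = 0.00161). St François exceeded Sud-ouest by 1.76 (adjusted p = 0.000395) and St Jean by 2.18 (adjusted p = 5.79e-06). The site means were -0.46 ± 0.35 in St Pierre, 0.16 ± 0.28 in St François, -1.61 ± 0.78 in Sud-ouest and -2.02 ± 0.57 in St Jean (SD, n = 5 each). Neither the gap between the lakes (-0.61, adjusted p = 0.494) nor that between the rivers (0.41, adjusted p = 0.680) passed. It lost the call against Sud-ouest in St Pierre under median centring (1.14, adjusted p = 0.126), without background subtraction (0.78, adjusted p = 0.0559) and with only the Quebec fish (adjusted p = 0.115). It also lost that call without St Pierre replicate 1 (adjusted p = 0.0547), 2 (0.0631) or 3 (0.0516) and without Sud-ouest replicate 1 (0.0953) or 5 (0.0780). Where 1 contig still passed in all 4 pairs among these fits, it was another one. The number of contigs passing in all 4 pairs was 0 without St Pierre replicate 2 or 3 or without Sud-ouest replicate 5. It was 2 without St Pierre replicate 4, without both St Pierre fish that stood apart, or without St Jean replicate 5.

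At contig_26357 the larger differences came from St François, with 1.52 over Sud-ouest (adjusted p = 0.00402) and 1.88 over St Jean (adjusted p = 0.000102). St Pierre exceeded St Jean by 1.08 (adjusted p = 0.0437), and its difference of 0.72 from Sud-ouest did not pass (adjusted p = 0.276). Under median centring, St François minus St Jean was 1.60 and did not pass (adjusted p = 0.0770). Lakes minus rivers still passed there, at 1.08 (adjusted p = 0.0438). contig_1168 ran the other way. It was lower in St Pierre by -2.18 against Sud-ouest (adjusted p = 0.0234) and by -2.15 against St Jean (adjusted p = 0.0279). Neither St François difference passed (-1.43, adjusted p = 0.282, and -1.39, adjusted p = 0.306). Without St Pierre replicates 4 and 5, the St Pierre differences were -1.33 and -1.29 and neither passed. With only the Quebec fish neither passed (adjusted p = 0.115 and 0.111), nor did that against Sud-ouest in the authors' values (-1.97) or that against St Jean with scaling between arrays (-1.92). Of 20 fits that left out 1 fish, 17 kept the call against Sud-ouest and 14 that against St Jean.

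contig_15825 had the widest gap between the lakes among the 16. Its values were 1.14, 1.14, 1.10, 0.93 and 1.17 in St Pierre and 0.86, -0.23, -0.37, -1.24 and -0.73 in St François. They were 0.26, 0.87, -1.36, -1.95 and -2.29 in Sud-ouest, and -0.78, -1.01, -0.75, -1.32 and -0.11 in St Jean. Every St Pierre fish was above the fish of all other Quebec sites, and St François fish overlapped both Quebec rivers. St Pierre exceeded Sud-ouest by 1.99 (adjusted p = 0.0129) and St Jean by 1.89 (adjusted p = 0.0251). St François differed from Sud-ouest by 0.56 (adjusted p = 0.851) and from St Jean by 0.45 (adjusted p = 0.866), while St Pierre minus St François was 1.44 (SE 0.45, adjusted p = 0.173). The lakes minus rivers difference of 1.22 (SE 0.32, adjusted p = 0.0347) held in 9 of the 20 fits that left out 1 fish. It was lost under median centring (adjusted p = 0.128), without background subtraction (0.108), in the authors' values (0.0518), with only the Quebec fish (0.0907) and with scaling between arrays (0.127).

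Some contigs passed against 1 river only. contig_16133 averaged -1.20 in St Pierre and -0.42 in St François, against 1.41 in Sud-ouest and -0.06 in St Jean. It was lower than Sud-ouest by -2.61 in St Pierre (adjusted p = 0.000495) and by -1.84 in St François (adjusted p = 0.0256), and lower in lakes than in rivers by -1.49 (SE 0.31, adjusted p = 0.00549). Neither lake passed against St Jean (adjusted p = 0.287 in St Pierre and 0.915 in St François), and neither did Sud-ouest minus St Jean (adjusted p = 0.219). contig_20211 was higher than Sud-ouest by 1.80 in St Pierre (adjusted p = 0.0251) and by 2.12 in St François (adjusted p = 0.00946). Its river means were -2.42 in Sud-ouest and -0.75 in St Jean, a difference that did not pass (adjusted p = 0.177), and lakes minus rivers was 1.13 (adjusted p = 0.0574). contig_11192 was lower in St François than in Sud-ouest by -1.71 (adjusted p = 0.0256), with a lakes minus rivers difference of -0.98 (adjusted p = 0.0726). The St Pierre difference from Sud-ouest was of similar size, -1.50, and just missed the threshold (adjusted p = 0.0521). Sud-ouest averaged 1.15, against -0.35 in St Pierre, -0.56 in St François and -0.10 in St Jean. Against St Jean, contig_37161 was lower in St François by -2.45 (adjusted p = 0.0375), and its lakes minus rivers difference of -1.72 (SE 0.43) passed (adjusted p = 0.0310). Its lowest value was that of a river fish, Sud-ouest replicate 3 at -0.82, so no lake fish lay below every river fish.

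Several of these calls leaned on background subtraction, on the shared spread or on single fish. Of 20 fits that left out 1 fish, 13 kept the St François call of contig_37161 and 14 that of contig_16133. The lakes minus rivers call was kept in 13 for contig_37161 and in 20 for contig_16133. The St François call of contig_11192 and the St Pierre call of contig_20211 were each kept in 15. All 20 kept contig_16133 in St Pierre and contig_20211 in St François. Without background subtraction contig_16133 still passed in St Pierre (-2.22, adjusted p = 0.0012). Without background subtraction, contig_20211 differed from Sud-ouest by 0.84 in St Pierre (adjusted p = 0.209) and 0.91 in St François (adjusted p = 0.210), contig_11192 by -0.85 in St François (adjusted p = 0.324) and contig_16133 by -1.50 in St François (adjusted p = 0.0592). The authors' values gave 2.74 and 3.63 for contig_20211, both passing, and -2.61 (adjusted p = 0.0551) for contig_11192 and -1.83 (adjusted p = 0.121) for contig_16133 in St François. For contig_37161, St François minus St Jean passed at -1.50 without background subtraction and at -4.15 in the authors' values. With only the Quebec fish, of the calls in the paragraph before, that of contig_16133 in St Pierre and its lakes minus rivers call held, while the St François calls of contig_16133 (adjusted p = 0.0532), contig_11192 (0.101) and contig_37161 (0.0900), both calls of contig_20211 (0.178 and 0.0894) and the lakes minus rivers call of contig_37161 (0.0541) were lost.

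Pairs of sites with no fish in common allow the lake-river difference to be compared with itself, although all arrays share the pool. Across the 992 contigs, St Pierre minus Sud-ouest and St François minus St Jean correlated at r = 0.255 (Spearman's rho = 0.0514), and 50% of contigs had the same sign. St Pierre minus St Jean and St François minus Sud-ouest correlated at r = 0.274 (rho = 0.0849), with 50.3% of the same sign. The differences within the sides, St Pierre minus St François and Sud-ouest minus St Jean, correlated at r = -0.018 (rho = -0.041), with 47.7% of the same sign. These same fish selected the 16 contigs that passed. Over the other 976 contigs, r was 0.0757 in the first set, 0.0691 in the second and 0.0062 for the differences within the sides. In the first 2 sets, lakes minus rivers is the mean of the 2 differences correlated. Leaving out contigs that pass it therefore tends to lower r there, so neither value is free of selection. Contigs are not independent replicates, and these values are descriptions. An unadjusted p under 0.05 was reached in both comparisons by 14 contigs in the first set, 11 of them in one direction, and by 16 in the second, 14 in one direction. For the 2 differences within the sides, 88 and 99 contigs reached it, 8 of 992 reached it in both and 3 had the same sign. Numbers to be expected without any difference were not computed, and selection favours one direction among the 16, so these counts are no replication.

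**Figure D5:**
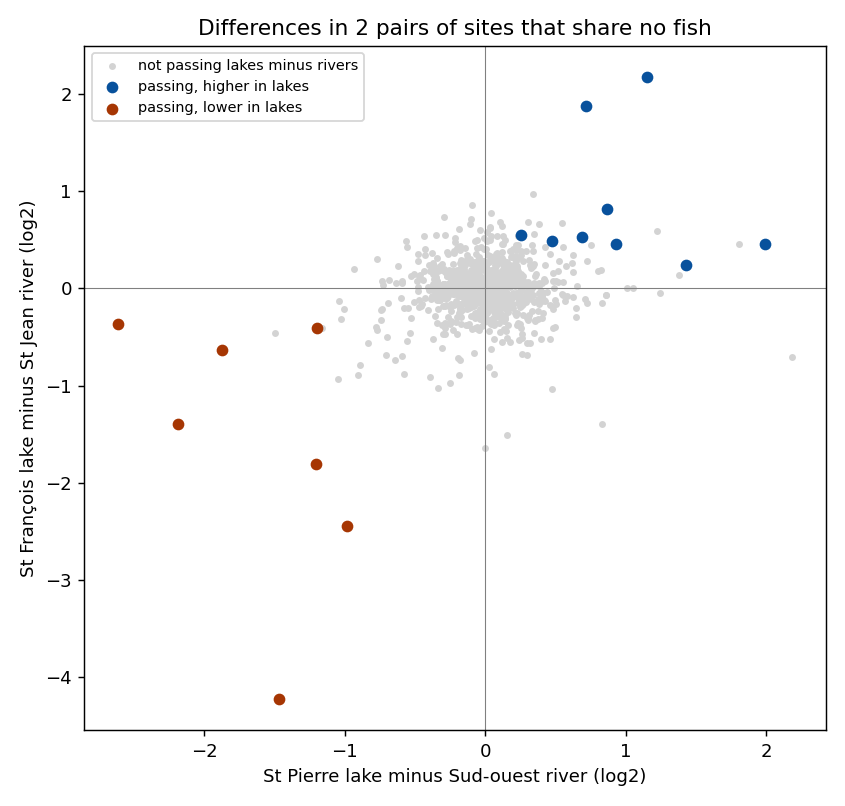
Difference of St Pierre minus Sud-ouest (x axis, log2) against St François minus St Jean (y axis, log2), which share no fish, for 992 contigs; coloured points are the 16 that passed lakes minus rivers. The other 976 contigs lie mostly around 0, and the coloured points, which these same fish selected, lie in the upper right and lower left.

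Differences within a side compare 5 fish with 5, as do the single lake-river pairs, in which 9 to 16 contigs passed. Lakes minus rivers compares 10 fish with 10 and so has a smaller SE (0.20 against 0.28 at contig_31300). Its count is therefore not a like comparison for those within a side. St Pierre minus St François had 4 contigs passing (0.403%), all higher in St Pierre, and 88 at an unadjusted p under 0.05 (8.87%). Sud-ouest minus St Jean had 0 passing in limma (0%) and 99 at an unadjusted p under 0.05 (9.98%), and without background subtraction 25 contigs passed between the rivers. Of the 4, contig_25111 stood at -0.50, -0.49, -1.22, 0.83 and -0.97 in St Pierre and at -1.35, -1.96, -2.16, -2.34 and -2.22 in St François, so that the lakes did not overlap. The difference was 1.54 (SE 0.32, adjusted p = 0.0270). The rivers averaged -0.47 in Sud-ouest and -0.37 in St Jean, near the St Pierre mean of -0.47 ± 0.79, and St François stood lowest at -2.01 ± 0.39 (SD, n = 5 each).

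contig_18174 had values of 0.82, 0.38, 0.97, 0.20 and 1.43 in St Pierre and of -0.15, 0.08, -0.61, -0.71 and -0.50 in St François, again without overlap. The difference was 1.14 (SE 0.25, adjusted p = 0.0270). The rivers averaged -0.48 in Sud-ouest and -0.33 in St Jean, close to St François at -0.38 ± 0.33, and St Pierre stood highest at 0.76 ± 0.49 (SD, n = 5 each). It exceeded Sud-ouest by 1.24 (adjusted p = 0.00513) and St Jean by 1.09 (adjusted p = 0.0179). Without both St Pierre fish that stood apart, neither contig passed between the lakes, at 1.27 for contig_25111 and 1.10 for contig_18174, and 1 contig passed in all. Without background subtraction the difference was 0.76 for contig_25111 (adjusted p = 0.874) and 0.44 for contig_18174 (adjusted p = 0.325). With only the Quebec fish neither passed (adjusted p = 0.105 and 0.0782), and contig_25111 did not pass under median centring (1.42, adjusted p = 0.207) or in the authors' values (1.68, adjusted p = 0.0633). The count between the lakes was 0 without St François replicate 4 or 5, 1 without St François replicate 3, and 2 without St François replicate 2 or St Pierre replicate 3, 4 or 5. It was 7 without replicate 1 of either lake.

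The French wild eels, which are European eels from 3 sites with 5 fish each, were not on one side of this contrast. Of the 16 contigs, the site mean was nearer the lake mean than the river mean at 8 in Dordogne river, 12 in Garonne river and 9 in the Gironde estuary. All 3 French means were nearer the lakes at 5 contigs and nearer the rivers at 2. These counts were not made over all 992 contigs, so no background share stands beside them. For contig_31300 the French means were -1.0 in Dordogne, 0.07 in Garonne and 0.04 in Gironde, and for contig_1168 they were 0.86, 0.38 and 0.38 in that order. Differences between French and Quebec sites at these contigs were not tested, and species and country cannot be told apart in them.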

How the data were processed

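The authors deposited spot intensity values of both channels with their backgrounds, per the file headers (no scanner named in the sources used here). They ran from 4 to 65535 and were not normalized. The authors also deposited log2 ratios per contig, used as an alternative. Dyes (fish Cy3, pool Cy5) are given per the labels.

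In limma 3.58.1 under R 4.3.3, background was corrected by normexp with an offset of 50, dye bias was removed from each array by loess, and contigs were averaged over 3 spots. The offset understates folds of dim contigs. A mean per site was fitted to 35 wild fish (lmFit, eBayes), with Benjamini-Hochberg adjustment over 992 contigs at 0.05; SE comes from this fit. The number of arrays limits precision. Array measures were tested two-sided with 100000 resamples.

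Fish are separate animals, per the series design text; replicate numbers only name fish. Contigs could not be named (0 matched the RefSeq gene table). By rule, at most 2 increases and 2 decreases per comparison were named by size: for lakes minus rivers with both lakes on one side of both rivers, for other comparisons with every fish of the first site on one side of the second site's mean and the fish signal above background on more than 2 arrays of each site. The contigs with the widest gap between lakes and between rivers were added. The comparison and this rule were chosen with earlier results of these data known. Alternatives were the authors' values, no background subtraction, median centring, leaving out dim contigs (below the 0.25 quantile), only the Quebec fish, scaling, pool brightness as a covariate, site as the unit and leaving out each fish. Leaving out arrays with pool brightness below 7 (log2), and St Pierre replicates 4 and 5 together, was chosen after seeing the data. A slide block could not be fitted, since each slide held 1 array.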

Additional observations from a re-analysis of the deposited data

Results flagged for a closer look

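In 5 of 56 groups of 5 fish, 1 fish lay far from the other 4 by Dixon's test, which chance does in about 1 group in 20. For contig_1168, St Pierre replicate 4 stood at -2.83, with the other St Pierre fish between 0.63 and 1.25. The same fish stood at 0.93 for contig_15825, with the others between 1.10 and 1.17, still above every fish of the other Quebec sites. For contig_11192, St François replicate 1 stood at -1.10, with the others between -0.47 and -0.36. The array of Sud-ouest replicate 1 had 920 contigs above background in both channels, with the others between 972 and 988. The array of St Pierre replicate 2 had a mean pool brightness of 5.60 on the log2 scale, with the others between 9.24 and 10.4.

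The lakes themselves differed by limma's test at contig_25111 (1.54, adjusted p = 0.0270) and at contig_18174 (1.14, adjusted p = 0.0270).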

How the results depend on the processing

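Over 29 refits with the fish as the unit, no contig of the 16 changed direction where it was tested (2 contigs were among the dimmest, left out of 1 refit). The refits reuse the fish that selected the 16, so an unchanged direction is no independent support. Of the 16, 5 passed in all 29 refits, and 8 passed in each of the 20 that left out 1 fish. The count between lakes and rivers, and the count with both lakes on one side, were 7 with only the Quebec fish, 4 with site as a random block and 0 with site means (limma; 71 at an unadjusted p under 0.05). Leaving out 1 fish gave 9 to 20 and 9 to 19. Without background subtraction, 5 passed for St Pierre minus Sud-ouest, 32 for St Pierre minus St Jean, 4 for St François minus Sud-ouest, 0 between the lakes (43 unadjusted), 25 between the rivers and 0 in all 4 pairs. The authors' values gave 8, 7 and 5 for the first 3 of these, 2 between the lakes and 2 between the rivers. Only the Quebec fish gave 7, 8 and 1, then 5 for St François minus St Jean, 0 between the lakes (77 unadjusted) and 0 in all 4 pairs. Median centring gave 9 for St Pierre minus St Jean, 4 for St François minus St Jean and 1 between the lakes. Scaling gave 1 between the rivers. Without arrays with a dim pool, 22 passed for St Pierre minus Sud-ouest, 7 between the lakes, 1 between the rivers and 2 in all 4 pairs. Without St Pierre replicates 4 and 5, 2 passed for St Pierre minus St Jean, 1 between the lakes and 2 in all 4 pairs. Leaving out 1 fish gave 7 to 20 for St Pierre minus Sud-ouest, 2 to 24 for St Pierre minus St Jean, 4 to 17 for St François minus Sud-ouest, 4 to 9 for St François minus St Jean, 0 to 7 between the lakes, 0 to 0 between the rivers and 0 to 2 in all 4 pairs. The cause of these shifts was not tested. No paired analysis was possible because replicate numbers only name fish.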

Other observations

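The spread between fish of a site was uneven for contig_15825. The 5 St Pierre fish lay between 0.93 and 1.17 (SD 0.098), while Sud-ouest fish lay between -2.29 and 0.87 (SD 1.39), and the difference in spread was not tested.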
